A study of Mus musculus with 2 samples.

Results

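The Gadd45 family of the mouse, Gadd45a, Gadd45b and Gadd45g, was followed in single gut cells sorted for a reporter of the IL-23 receptor. The 3 genes were chosen by symbol from 32285 genes, with earlier results of these data known, so their levels are given as a description. Live eGFP-positive cells were sorted from leukocytes of the small intestine of Il23r-eGFP mice, whose fluorescence reports expression of the receptor gene Il23r. The IL-23 group was given recombinant mouse IL-23 for 2 hours and the Unstimulated group is labelled as untreated; both carry the same reporter allele. Each group was 1 droplet library, and the labels state neither the number or age of the animals nor how long the Unstimulated cells were held. Both samples' protocols describe the stimulation, so which library went without it rests on the treatment labels. With 1 library per group no difference was tested, and every 95% interval covers counting error only.

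Gadd45 proteins are small nuclear stress proteins without enzyme activity of their own. They bind and activate the kinase MEKK4 (Map3k4), which feeds the p38 and JNK pathways, and they contact PCNA, p21 (Cdkn1a) and the CDK1-cyclin B1 complex. Gadd45a is a classic target of p53, Gadd45b is induced by NF-kB and TGF-beta, and Gadd45g is induced by cytokines. In mouse T helper 1 cells Gadd45b and Gadd45g are known to sustain p38 activity and interferon-gamma (Ifng) production after IL-12 and IL-18. IL-23 acts through STAT3 and drives interleukin-22 (Il22) in group 3 innate lymphoid cells (ILC3s) and gamma delta T cells.

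Kept cells had at least 500 detected genes and at most 10% mitochondrial counts, which left 9251 of 10440 barcodes in the IL-23 library and 10790 of 11096 in the Unstimulated library. Their counts of unique molecular identifiers (UMIs) summed to 61359895 in the IL-23 library and 58148889 in the Unstimulated library, with medians of 6087 and 4928 per cell. Cells without a UMI of Cd3e, Cd3d or Cd3g (CD3-) numbered 8583 in the IL-23 library and 10075 in the Unstimulated library. Of these, 1258 IL-23 and 1052 Unstimulated cells had Ncr1 without Ccr6, 1464 and 1535 had Ccr6 without Ncr1, and 5802 and 7440 had neither. Cells with Cd3e and Trdc but no Trac numbered 221 and 232, and cells with Cd3e and Trac but no Trdc numbered 99 and 163. The classes rest on single UMIs, so a cell without Ncr1 or Ccr6 in its counts may still express it. All 10 ILC3 markers listed for this work were found in at least 5% of CD3-, Trdc+ T and Trac+ T cells of both libraries. Their count thus does not set these classes apart. The 6 T cell markers, 3 of which the CD3 rule sets to 0, summed to 12.3 CPM (UMIs per 1000000 UMIs of the class) in IL-23 CD3- cells. In Unstimulated CD3- cells they summed to 13.6 CPM. They summed to 1260 and 1195 CPM in Trdc+ T cells, where Cd3e is required, so the class rules fix much of this gap. The 5 alpha beta T markers summed to 376 CPM in IL-23 and 491 CPM in Unstimulated CD3- cells, against 1818 and 1845 CPM in Trac+ T cells. Of these 5, 3 and 2 were found in at least 5% of CD3- cells. The 8 B and plasma cell markers, none of them at 0, summed to 70.3 CPM in IL-23 and 198 CPM in Unstimulated CD3- cells; their part in the results was not tested, though ratios without B-marked barcodes are among the alternatives. By class these sums went in opposite directions, 5.35 CPM in IL-23 and 219 CPM in Unstimulated Ncr1+ cells, 265 and 22.1 CPM in Ccr6+ cells and 29.2 and 240 CPM in cells with neither marker. The 6 NK or ILC1 markers summed to 73.7 CPM in IL-23 and 31.1 CPM in Unstimulated CD3- cells, and to 149 and 55.7 CPM in Ncr1+ cells. Klra8 was at 0 in both classes of both libraries, Klra4 in all but IL-23 CD3- cells, and Eomes in Unstimulated Ncr1+ cells. In at least 5% of Ncr1+ cells, 2 of the 6 were found in the IL-23 library and 1 in the Unstimulated library. The part of these markers in the ratios was not tested. Among kept cells 25 barcodes were found in both libraries.

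The 3 genes lie on different chromosomes of GRCm38. Gadd45a (ENSMUSG00000036390) spans positions 67035096 to 67037457 of chromosome 6 on the minus strand. Gadd45b (ENSMUSG00000015312) spans 80930073 to 80932204 of chromosome 10 on the plus strand. Gadd45g (ENSMUSG00000021453) spans 51846678 to 51848468 of chromosome 13 on the plus strand. Their promoters are shown because these paralogues differed in level and in ratio between the libraries. Each runs from 250 bases before to 50 bases after the RefSeq start (GRCm38.p6), on the gene's own strand, at chr6:67037358-67037657, chr10:80929841-80930140 and chr13:51846425-51846724. Capitals mark the CCAAT box, the TATA box (TATAAA) and the octamer (ATTTGCAT, the motif of POU factors) on either strand.
Gadd45a: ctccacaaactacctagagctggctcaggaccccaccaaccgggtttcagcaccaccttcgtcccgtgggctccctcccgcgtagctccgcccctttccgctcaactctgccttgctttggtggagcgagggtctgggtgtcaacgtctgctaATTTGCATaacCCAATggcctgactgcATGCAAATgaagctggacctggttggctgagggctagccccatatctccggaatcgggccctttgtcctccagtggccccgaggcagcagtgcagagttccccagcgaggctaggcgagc
Gadd45b: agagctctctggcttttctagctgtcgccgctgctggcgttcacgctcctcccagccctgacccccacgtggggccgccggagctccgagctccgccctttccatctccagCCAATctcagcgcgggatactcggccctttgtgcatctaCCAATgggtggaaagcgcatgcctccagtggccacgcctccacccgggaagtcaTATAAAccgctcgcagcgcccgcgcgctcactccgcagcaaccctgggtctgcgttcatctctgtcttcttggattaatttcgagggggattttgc
Gadd45g: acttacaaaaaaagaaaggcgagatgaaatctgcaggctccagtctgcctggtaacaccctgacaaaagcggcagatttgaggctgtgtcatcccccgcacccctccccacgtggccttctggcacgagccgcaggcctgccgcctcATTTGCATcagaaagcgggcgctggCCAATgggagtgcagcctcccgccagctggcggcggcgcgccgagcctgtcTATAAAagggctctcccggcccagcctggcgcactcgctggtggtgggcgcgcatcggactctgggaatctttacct
The motifs were picked after the sequences had been seen, and the marked matches do not overlap each other. All 3 promoters held a CCAAT box, at 86 bases upstream of the start in Gadd45a, at 139 and 100 in Gadd45b and at 78 in Gadd45g; 37.4% of 32851 mouse promoters of this length hold one. A TATA box stood 46 bases upstream in Gadd45b and 27 bases upstream in Gadd45g, and none was found in Gadd45a; 13.6% of promoters hold one. The octamer, found in 1.74% of promoters, occurred at 97 and 70 bases upstream in Gadd45a and at 103 bases upstream in Gadd45g. The E box CACGTG (7.15% of promoters) stood at 185 bases upstream in Gadd45b and at 142 in Gadd45g. The STAT element TTCNNNGAA (8.30% of promoters) was not found in the 3 windows, which says only that these letters are absent there. Distances are counted from the RefSeq starts, which differ from the starts of the gene spans given above, so they depend on the annotation. The matches are descriptions of sequence, not binding sites.

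Gadd45g was the member with the highest ratio between the libraries. In CD3- cells it stood at 1140 CPM (95% Poisson interval 1131 to 1149) in the IL-23 library and at 124 CPM (121 to 127) in the Unstimulated library, a log2 ratio of 3.20 (3.16 to 3.23) or 9.17-fold. Only 7 of the 6996 genes measured in these cells had a higher ratio. Gadd45b stood at 2010 CPM (1998 to 2022) in IL-23 and 1249 CPM (1240 to 1259) in Unstimulated cells, a log2 ratio of 0.69 (0.67 to 0.70) or 1.61-fold. Gadd45a was low in both, at 185 CPM (181 to 188) in IL-23 and 134 CPM (131 to 137) in Unstimulated cells, a log2 ratio of 0.46 (0.42 to 0.51) or 1.38-fold. All 3 members were thus higher in the IL-23 library, and 2 of them by at least 1.5-fold. Among all measured genes 3.96% (277) were at least 1.5-fold higher and 3.57% (250) at least 1.5-fold lower; the members were picked with these ratios known, so nothing is read from their count. The median log2 ratio of measured genes was -0.11, and with that median set to 0 the split was 348 higher and 150 lower.

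The family's makeup also differed between the libraries. UMIs count captured transcripts and were not divided by length, so these are shares of captured family UMIs. In CD3- cells Gadd45g made up 34.2% of family UMIs in the IL-23 library (exact binomial 95% interval 34.0 to 34.4) and 8.24% in the Unstimulated library (8.05 to 8.44). Gadd45b made up 60.3% in IL-23 and 82.9% in Unstimulated cells, and Gadd45a 5.54% and 8.89%. The summed family stood at 3335 CPM in IL-23 and 1508 CPM in Unstimulated cells. Of the difference of the members, Gadd45g gave 1016 CPM, Gadd45b 761 CPM and Gadd45a 50.7 CPM. In Unstimulated cells Gadd45a and Gadd45g were captured at near levels, while in IL-23 cells Gadd45g stood well above Gadd45a.

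Gadd45g was higher in the IL-23 library in every class. In Ncr1+ CD3- cells it stood at 1475 CPM (IL-23) and 145 CPM (Unstimulated), 10.2-fold (interval 9.55 to 10.9), the highest level of the 5 classes in the IL-23 library. In Ccr6+ CD3- cells it stood at 951 CPM in IL-23 and 147 CPM in Unstimulated cells, 6.47-fold (6.11 to 6.86). In CD3- cells with neither marker it stood at 1099 CPM in IL-23 and 114 CPM in Unstimulated cells, 9.65-fold (9.34 to 9.96). The intervals of the Ncr1+ and Ccr6+ folds do not overlap, but the difference of the folds has no replicate check. T cells carried less: Trdc+ T cells had 252 CPM in IL-23 and 37.1 CPM in Unstimulated cells, 6.80-fold, and Trac+ T cells had 219 and 21.1 CPM, 10.4-fold (6.92 to 16.1). The Unstimulated T cell values rest on 59 and 27 UMIs. The Trac+ value lies below the 25.5 CPM of Gadd45g in Unstimulated B-marked barcodes (barcodes with B cell markers, a check of stray RNA). Few of those barcodes held the gene, so they set no firm background, and the size of the Trac+ fold is not read. Among IL-23 cells the order was Ncr1+, neither, Ccr6+, then both T classes, whose intervals overlapped (229 to 277 CPM in Trdc+ and 190 to 251 CPM in Trac+). Among Unstimulated cells Ccr6+ and Ncr1+ were not told apart (147 CPM, 139 to 155, and 145 CPM, 136 to 154). Ncr1+ cells thus exceeded Ccr6+ cells 1.55-fold in the IL-23 library and stood at 0.985 times their level in the Unstimulated library.

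**Figure D1:**
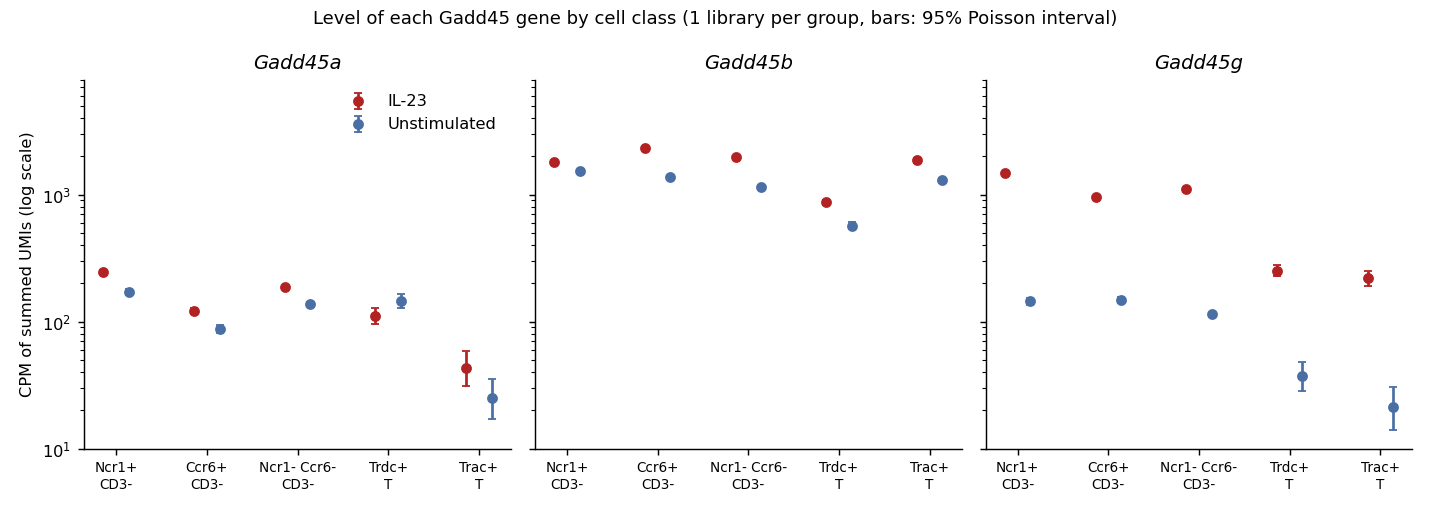
Level of each Gadd45 gene (CPM of summed UMIs, log axis) in 5 cell classes, IL-23 library left of Unstimulated library, bars giving the 95% Poisson interval. Gadd45g is apart between the libraries in every class (1475 against 145 CPM in Ncr1+ cells), while Gadd45a of Trdc+ T cells is the single pair with the IL-23 point lower.

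Gadd45b, the member with the most UMIs in every class, differed less between the libraries and in another order of classes. In Ncr1+ CD3- cells it stood at 1799 CPM in IL-23 and 1541 CPM in Unstimulated cells, 1.17-fold (1.14 to 1.20), its lowest ratio among the 5 classes. In Ccr6+ CD3- cells it stood at 2329 CPM in IL-23 and 1376 CPM in Unstimulated cells, 1.69-fold (1.66 to 1.73), and in cells with neither marker at 1969 and 1153 CPM, 1.71-fold. Ccr6+ cells were thus above Ncr1+ cells in the IL-23 library (1.29-fold) and below them in the Unstimulated library, where Ncr1+ cells were 1.12-fold higher. Trdc+ T cells had the lowest level, 866 CPM in IL-23 and 568 CPM in Unstimulated cells (1.52-fold, or a log2 ratio of 0.48 in place of 0.61 when cells with both Trdc and Trac are counted, which is under 1.5-fold). Trac+ T cells had 1854 CPM in IL-23 and 1290 CPM in Unstimulated cells, 1.44-fold, which passed 1.5-fold with the class median set to 0 (log2 ratio 0.59). Trac+ T cells thus stood near CD3- cells in Gadd45b (CD3- over Trac+ 1.08 in IL-23 and 0.968 in Unstimulated) while holding far less Gadd45g and Gadd45a. These T cell levels were uneven: the top 10% of cells held 52.2% of the Gadd45b UMIs of IL-23 Trac+ T cells and 62.0% of those of Unstimulated ones, against 38.9% and 46.1% in CD3- cells. Cycling markers moved with the class, at 16.2 CPM in IL-23 and 16.1 CPM in Unstimulated CD3- cells against 207 and 118 CPM in Trac+ T cells, and their part was not tested.

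Gadd45a differed between classes in both libraries. Ncr1+ CD3- cells had 247 CPM in IL-23 and 171 CPM in Unstimulated cells (1.44-fold), and Ccr6+ CD3- cells had 121 and 87.0 CPM (1.39-fold). Ncr1+ cells were therefore 2.04-fold above Ccr6+ cells in the IL-23 library and 1.97-fold above them in the Unstimulated library. Cells with neither marker lay between, at 187 CPM in IL-23 and 138 CPM in Unstimulated cells. Trac+ T cells had the least, 43.6 CPM (41 UMIs) in IL-23 and 25.0 CPM (32 UMIs) in Unstimulated cells, 1.74-fold with a wide interval of 1.07 to 2.85. In Trdc+ T cells the direction was the other way, 110 CPM (95.1 to 127) in IL-23 and 145 CPM (127 to 165) in Unstimulated cells, a log2 ratio of -0.40 (-0.68 to -0.12). With class medians set to 0, the log2 ratios of Gadd45a in Ncr1+ and Ccr6+ cells were 0.64 and 0.59, both past 1.5-fold, where the plain ratios were 0.53 and 0.48.

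**Figure D2:**
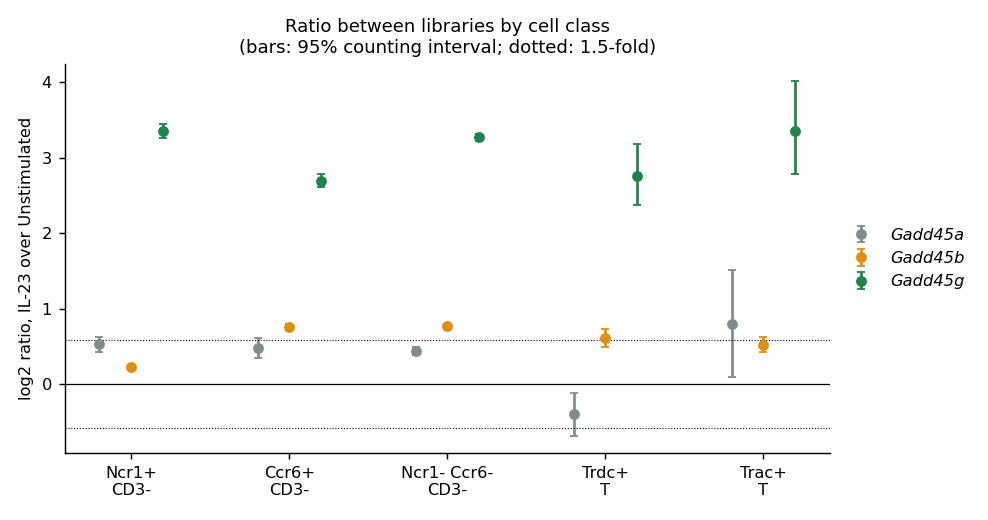
Log2 ratio of each member, IL-23 over Unstimulated, in 5 classes with its 95% counting interval; dotted lines mark 1.5-fold. Gadd45g lies between 2.69 and 3.35 in all classes, Gadd45b between 0.22 and 0.77, and Gadd45a is below 0 in Trdc+ T cells (-0.40).

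Read against the measured genes of each class, at least 1.5-fold higher were 5.18% in Ncr1+, 2.87% in Ccr6+ and 4.09% in the CD3- cells with neither marker. The shares were 8.01% in Trdc+ and 7.83% in Trac+ T cells. By that size 1 member was called in Ncr1+ cells (Gadd45g), 2 in Ccr6+ cells, in cells with neither marker and in Trdc+ T cells (Gadd45b and Gadd45g), and 2 in Trac+ T cells (Gadd45a and Gadd45g). The Unstimulated Trac+ levels of both are no higher than in B-marked barcodes (25.5 CPM each). IL-23 Trac+ Gadd45a (43.6 CPM) is below the 74.1 CPM of IL-23 B-marked barcodes. The B-marked values rest on few UMIs and set no firm background. Nothing is read from the Gadd45a ratio of Trac+ T cells. Genes at least 1.5-fold lower made up 7.26%, 4.32%, 3.89%, 10.6% and 12.2% of these classes in the same order, and no member was among them. In the few cells with both Ncr1 and Ccr6 (59 in IL-23 and 48 in Unstimulated) the log2 ratios were 2.71 for Gadd45g, -0.02 for Gadd45b and -0.12 for Gadd45a, the last 2 with intervals that include 0.

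Single cells showed the same split among the paralogues. A Gadd45g UMI was found in 82.5% of IL-23 and 25.5% of Unstimulated CD3- cells, a Gadd45b UMI in 93.1% and 83.3%, and a Gadd45a UMI in 51.4% and 38.5%. To set depth aside, each cell was thinned to 2000 UMIs, which left out 320 IL-23 and 394 Unstimulated CD3- cells. Gadd45g was then found in 67.3% of IL-23 (66.2 to 68.3) and 15.3% of Unstimulated cells (14.6 to 16.1), Gadd45b in 81.5% and 69.0%, and Gadd45a in 26.2% and 20.7%. After thinning 1 UMI stands for 500 CPM, above the mean level of Gadd45a in both libraries and of Gadd45g in Unstimulated cells, so for these the CPM carries the comparison. The median CD3- cell had 737 CPM of Gadd45g in the IL-23 library and 0 in the Unstimulated library, with 90th percentiles of 2510 and 400 CPM. In Unstimulated cells Gadd45g was unevenly spread: the top 10% of cells held 72.0% of its UMIs, against 42.0% in IL-23 cells. As a check of stray RNA, Gadd45g stood at 63.5 CPM in the 8 B-marked barcodes of the IL-23 library (1 of 8 with a UMI) and 25.5 CPM in the 20 of the Unstimulated library (2 of 20), at median depths of 6847 and 8405 UMIs, against 6021 and 4867 in CD3- cells. Gadd45a stood at 74.1 and 25.5 CPM in these barcodes. In the 7 IL-23 and 12 Unstimulated macrophage-marked barcodes Gadd45g stood at 121 and 61.1 CPM and Gadd45a at 90.4 and 24.4 CPM, on at most 8 UMIs each. Counts this few cannot tell stray RNA from RNA of the barcodes' own cells. The marked barcodes therefore set no firm background.

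**Figure D3:**
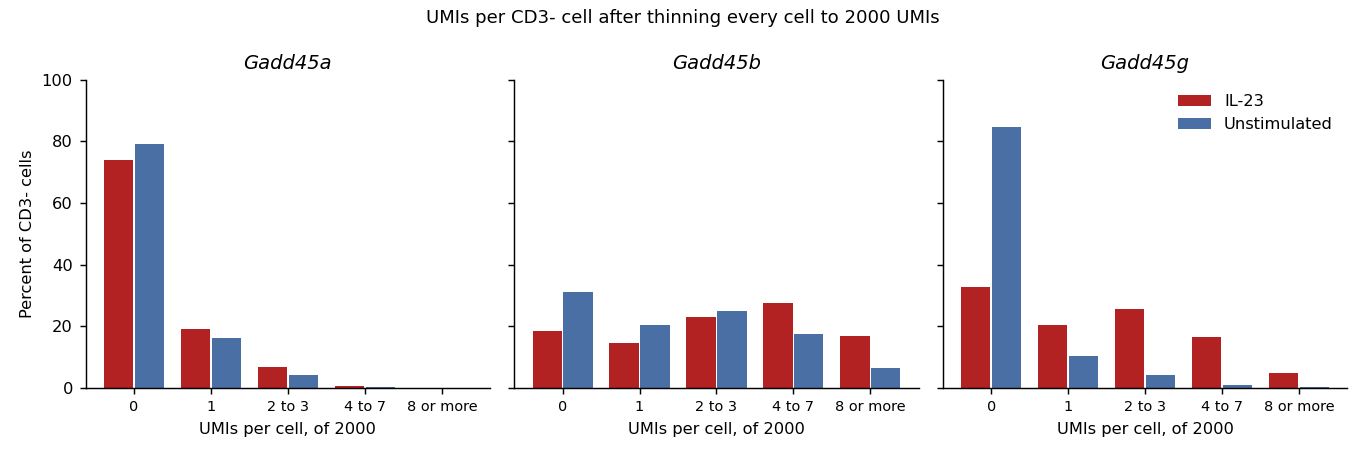
Percent of CD3- cells with 0, 1, 2 to 3, 4 to 7 or 8 or more UMIs of each gene after every cell was thinned to 2000 UMIs, IL-23 bars left of Unstimulated bars. Gadd45g had at least 1 UMI in 67.3% of IL-23 and 15.3% of Unstimulated cells, and Gadd45b in 81.5% and 69.0%.

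The members were only loosely tied to each other from cell to cell. After thinning, all 3 were found together in 14.9% of IL-23 and 2.73% of Unstimulated CD3- cells, and none of them in 4.84% and 22.2%. In the IL-23 library Gadd45b was found in 82.0% of cells with Gadd45g and in 80.4% of cells without it. In the Unstimulated library the shares were 80.8% and 66.8%, a wider gap than in the IL-23 library. Gadd45a was found in 25.3% of IL-23 cells with Gadd45b and in 30.4% of those without it, and in 20.6% and 21.0% of Unstimulated cells. By class the IL-23 direction was the same in cells with neither marker, 25.4% and 30.9%. It was also the same in Ncr1+ cells, 33.6% and 36.3%, but there with overlapping intervals. In IL-23 Ccr6+ cells it was the other way, 19.0% and 14.1%, with overlapping intervals. Trdc+ T cells of the IL-23 library had Gadd45b in 33 of 48 cells with Gadd45g (68.8%) and in 53 of 170 cells without it (31.2%). The highest Spearman correlation between 2 members in thinned cells was also there, 0.36 over 218 cells. In pooled CD3- cells the highest was 0.086 in the IL-23 library and 0.16 in the Unstimulated library. By class, Gadd45b with Gadd45g stood at 0.16 in Ccr6+, 0.13 in Ncr1+ and 0.075 in neither-marker cells of the IL-23 library. In the Unstimulated library it stood at 0.22 in both Ccr6+ CD3- cells and Trdc+ T cells. Cells of 1 library share its handling and depth, so these are descriptions.

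Gadd45g was higher in cells with much Il22 of their own, in both libraries. CD3- cells were binned by the CPM of their own Il22, and the members were scaled to the UMIs other than Il22 (non-Il22 CPM). In the IL-23 library Gadd45g stood at 827, 637, 499, 1144 and 2446 CPM in cells with no Il22, under 1000, 1000 to 10000, 10000 to 50000 and at least 50000 Il22 CPM (16, 110, 1419, 6192 and 846 cells). In the Unstimulated library it stood at 50.6, 82.1, 130, 215 and 391 CPM in the same bins (1570, 1515, 5278, 1644 and 68 cells). The Unstimulated values were higher at each step, while the IL-23 values were lowest in the middle bin, and the first IL-23 bin holds only 16 cells. Above 10000 Il22 CPM Gadd45g was 2.56-fold the level below it in IL-23 cells (log2 1.36, 1.32 to 1.40) and 2.09-fold in Unstimulated cells. Il22 itself stood at 1461 CPM in IL-23 and 1044 CPM in Unstimulated B-marked barcodes, so the bins under 1000 are at or below the level in B-marked barcodes.

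Among CD3- cells, Gadd45b was higher in cells with much Il22 in the Unstimulated library and differed less by Il22 in the IL-23 library. From the lowest to the highest bin it stood at 2306, 2234, 1782, 2028 and 2725 CPM in IL-23 cells and at 620, 855, 1295, 2075 and 3711 CPM in Unstimulated cells. Cells above 10000 Il22 CPM had 1.16-fold the level of those below it in the IL-23 library, and 1.97-fold in the Unstimulated library. Within the bin of 10000 to 50000, Gadd45b of IL-23 cells stood at 0.977 times that of Unstimulated cells. Within the top bin it stood at 0.734 times. In the bin without Il22, which holds only 16 IL-23 cells, Gadd45b was 3.73-fold higher in the IL-23 library. The near-equal values in the bin of 10000 to 50000 did not hold in each class. IL-23 Ncr1+ cells of that bin had 1708 CPM and Unstimulated ones 2917, while Ccr6+ cells had 2345 and 2056. The top bin also differed by class. There IL-23 over Unstimulated Gadd45b was 1.18 in Ncr1+ cells, with a log2 interval that includes 0, and 0.537 in Ccr6+ cells. These rest on 6 and 15 Unstimulated cells. In pooled CD3- cells Gadd45g was higher in the IL-23 library in all 5 bins. It was 3.83-fold higher in the bin of 1000 to 10000, 5.33-fold in that of 10000 to 50000 and 6.24-fold in the top bin. Ncr1+ cells without Il22 had 78.2 CPM in IL-23 (5 cells) and 85.4 CPM in Unstimulated cells, too few to read. The other Ncr1+ bins and the Ccr6+ bins compared were higher in the IL-23 library.

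Gadd45a stayed low in every Il22 bin of CD3- cells. It stood at 149, 115, 170, 196 and 189 CPM across the bins of IL-23 cells, and at 190, 149, 120, 116 and 131 CPM in Unstimulated cells, where the cells without Il22 had the most. The ratio above over below 10000 Il22 CPM was 1.18 in IL-23 and 0.839 in Unstimulated cells. By class, the same ratio for Gadd45g in IL-23 cells was 3.02 in Ncr1+, 2.07 in Ccr6+ and 2.55 in cells with neither marker, and among T cells 2.77 in Trdc+ and 4.08 in Trac+. The Spearman correlation with Il22 across thinned CD3- cells was 0.31 for Gadd45g, -0.01 for Gadd45b and 0.01 for Gadd45a in the IL-23 library (8263 cells). In the Unstimulated library it was 0.18, 0.32 and -0.06 (9681 cells).

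IL-23 T cells differed from CD3- cells in Gadd45b. Above 10000 Il22 CPM, IL-23 Trdc+ T cells had 3.66-fold the Gadd45b of those below it (log2 1.87, 1.72 to 2.03; 70 and 151 cells), and Trac+ T cells 2.04-fold (24 and 75 cells). The Spearman correlation of Gadd45b with Il22 in thinned IL-23 cells was 0.30 in Trdc+ and 0.39 in Trac+ T cells. Gadd45a was 1.48-fold higher above 10000 in IL-23 Trdc+ T cells and 3.44-fold in Trac+ T cells, where it rests on 22 and 19 UMIs. In Unstimulated Trdc+ T cells Gadd45b was 2.05-fold and Gadd45a 4.19-fold higher, from 10 cells above 10000, and only 2 Unstimulated Trac+ T cells were above it.

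**Figure D4:**
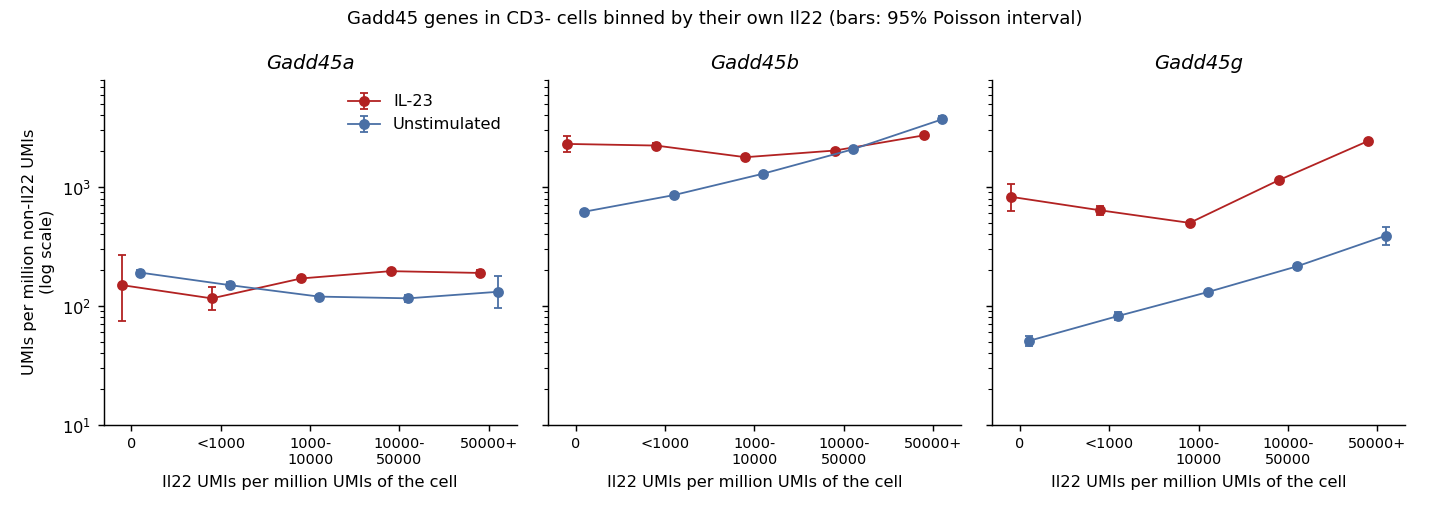
Non-Il22 CPM (log axis) of each member in CD3- cells grouped by their own Il22 CPM, for the IL-23 and Unstimulated libraries, with 95% Poisson intervals. Gadd45g of IL-23 cells is above that of Unstimulated cells in every bin (2446 against 391 in the top bin), while the Gadd45b lines meet in the bin of 10000 to 50000 (2028 against 2075).

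Ifng was rare, and cells that had it also had more Gadd45b. Among Ncr1+ CD3- cells, 90 of 1258 in the IL-23 library and 28 of 1052 in the Unstimulated library had an Ifng UMI. None of the 8 and 20 B-marked barcodes did. With Ifng in only 2.38% of IL-23 CD3- cells, so few barcodes set no background for it. Scaled to the UMIs other than Ifng and Il22 (CPM), Gadd45b of IL-23 cells stood at 3250 (3125 to 3379) with Ifng and 1731 (1704 to 1759) without it, 1.88-fold. In Unstimulated cells it stood at 4320 (4054 to 4599) with Ifng and 1453 (1424 to 1482) without it, 2.97-fold. Gadd45g of IL-23 cells stood at 2415 (2307 to 2526) with Ifng and 1441 (1416 to 1467) without it, 1.68-fold, and of Unstimulated cells at 215 (159 to 284) and 143 (134 to 153), 1.52-fold. Gadd45a of IL-23 cells was level, 255 with Ifng and 254 without it (log2 ratio 0.01, -0.21 to 0.21), and of Unstimulated cells it stood at 127 and 174 CPM with overlapping intervals. Cells with Ifng were deeper, with median UMIs of 8424 against 7241 in the IL-23 library. After thinning, the IL-23 shares with and without Ifng were 86.7% and 71.7% for Gadd45b, 85.6% and 75.3% for Gadd45g and 32.2% and 34.5% for Gadd45a. When all classes, Ncr1+ and CD3- included, were set anew after thinning, the Gadd45g log2 ratio was 0.42 in place of 0.74. Without B-marked, macrophage-marked and cycling cells it was 0.55, and both are under 1.5-fold. The Gadd45a ratio moved to -1.24 at 2000 UMIs and 0.67 at 3000 UMIs, so no direction can be read. At 2000 UMIs 37.0% of the IL-23 Ncr1+ cells still had an Ncr1 UMI and 3.77% an Ifng UMI. The thinned ratios thus rest on fewer and other cells.

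Gadd45b was also higher with Ifng outside Ncr1+ cells. In CD3- cells with neither marker, 104 IL-23 cells with Ifng had 3453 CPM of Gadd45b and 5698 without it had 1990, 1.73-fold. The 46 such Unstimulated cells with Ifng had 2184 CPM and the 7394 without it 1152, 1.90-fold. Gadd45g stood at 1617 and 1117 CPM with and without Ifng in these IL-23 cells (1.45-fold), and at 132 and 114 in the Unstimulated ones, with overlapping intervals. Gadd45a, level in IL-23 Ncr1+ cells, stood here at 267 and 191 CPM with and without Ifng in IL-23 cells (1.40-fold) and at 254 and 138 CPM in Unstimulated cells (1.85-fold). Il22 was higher in the Ncr1+ cells with Ifng, at 39189 CPM against 30160 in the IL-23 library and 8443 against 4617 in the Unstimulated library. In cells with neither marker it stood at 27969 CPM with and 26640 without Ifng in the IL-23 library, and the other way in the Unstimulated library, at 3667 and 5683 CPM. Ccr6+ cells with Ifng were too few to compare, 6 in IL-23 and 1 in Unstimulated.

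**Figure D5:**
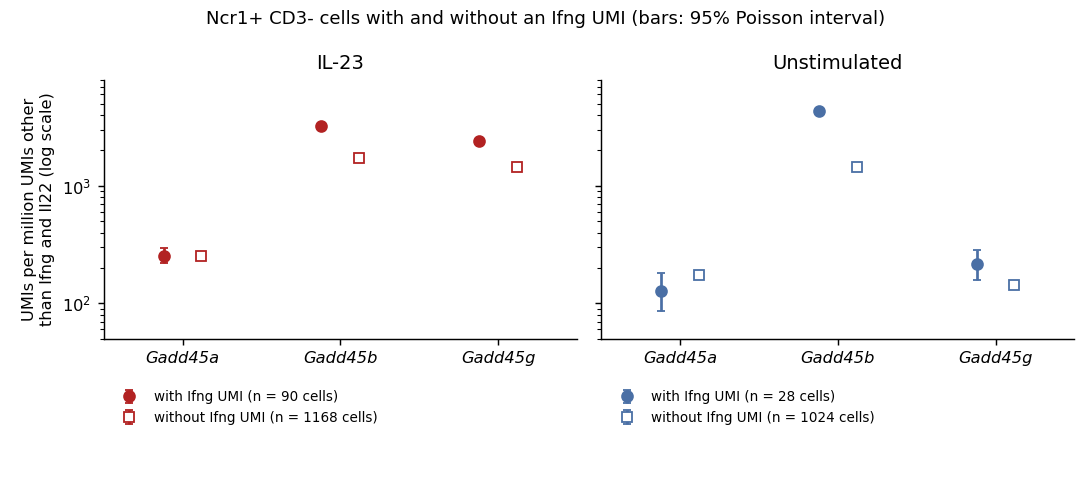
CPM (of UMIs other than Ifng and Il22, log axis) of each member in Ncr1+ CD3- cells with (filled) and without (open) an Ifng UMI, IL-23 panel left of the Unstimulated panel, bars giving 95% Poisson intervals. Gadd45b is higher with Ifng in both libraries (3250 against 1731 and 4320 against 1453), Gadd45a is level in the IL-23 library.

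Partners of the Gadd45 proteins mostly differed by less than 1.5-fold in CD3- cells, as did most measured genes. Of all measured genes 3.96% were at least 1.5-fold higher and 3.57% at least 1.5-fold lower, the shares to set beside the list counts below. In a list of 16 genes of the p38 and JNK pathways, 12 were measured (at least 10 CPM in 1 library and 20 UMIs over both), 2 were at least 1.5-fold higher and none lower, with a median log2 ratio of -0.09 beside -0.11 for all measured genes. The kinase Map3k4 that Gadd45 proteins bind stood at 8.95 CPM in IL-23 and 10.1 CPM in Unstimulated cells, and Mapk14, which encodes p38 alpha, at 41.5 and 50.5 CPM. The higher ones were Map2k4, a kinase upstream of JNK and p38, at 127 and 63.1 CPM (2.01-fold), and Jund, an AP-1 subunit, at 936 and 392 CPM (2.39-fold).

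Of 14 cell cycle genes 7 were measured and 1 was higher, Cdkn2d, an inhibitor of CDK4 and CDK6, at 13.2 CPM in IL-23 and 8.29 CPM in Unstimulated cells (1.59-fold); the median log2 ratio was -0.15. Cdkn1a, which encodes p21, was abundant at 1491 and 1215 CPM (1.23-fold), Pcna stood at 163 and 176 CPM, and Cdk1 and Ccnb1 were low, at 4.44 and 3.66 CPM and at 0.143 and 0.206 CPM. Of 12 demethylation and repair genes 9 were measured and 1 was higher, the abasic endonuclease Apex1, at 73.4 CPM in IL-23 and 16.6 CPM in Unstimulated cells (4.42-fold), with a list median of -0.15. The 5-methylcytosine oxidase Tet2 stood at 35.8 and 38.2 CPM and the glycosylase Tdg at 24.3 and 25.9 CPM. Of 14 genes of the p53 list 12 were measured, none was at least 1.5-fold higher and 1 was lower, Bbc3, which encodes the death protein PUMA, at 12.9 CPM in IL-23 and 24.0 CPM in Unstimulated cells (1.86-fold lower); the median was -0.05. Trp53 itself stood at 130 and 139 CPM.

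Of 20 upstream regulators and partners 17 were measured and 2 were higher, with a median log2 ratio of -0.001. These were Myc, at 25.4 CPM in IL-23 and 5.16 CPM in Unstimulated cells (4.93-fold), and Il18rap, a chain of the IL-18 receptor, at 95.1 and 57.7 CPM (1.65-fold). Gadd45gip1, which encodes a protein that binds Gadd45 proteins, stood at 92.4 and 99.5 CPM. The lists were compiled with earlier results known, and nothing is called particular to them.

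By the pattern of levels over the 10 class-by-library values, the members had different nearest genes among 8342 compared. Pearson correlations of log2(CPM + 10) were highest for Gadd45g with Stom (0.98), Jund (0.98), Il22 (0.98), Nol10 (0.97) and Osgep (0.96). Gadd45a was nearest to Ahcyl2 (0.98), Rbm27 (0.98), Tnfrsf9 (0.97), Clnk (0.96) and Ddx3x (0.96), and Gadd45b to Id2 (0.92), Elavl1 (0.91), Hspa8 (0.90), Csnk1g3 (0.90) and Gm10125 (0.90). Between members the values were 0.02 for Gadd45a and Gadd45b, 0.59 for Gadd45a and Gadd45g and 0.68 for Gadd45b and Gadd45g. The 10 values come from 2 libraries and share their handling, so these correlations describe and test nothing. Across thinned CD3- cells within a library, by Pearson correlation of the natural log of UMIs + 1, a comparison added after the data were seen, Gadd45b was nearest to the NF-kB inhibitor gene Nfkbia (0.51 in IL-23 and 0.46 in Unstimulated cells). Gadd45g was nearest to Il22 (0.31) in the IL-23 library and to Gadd45b (0.18) in the Unstimulated library, and the highest values for Gadd45a were 0.13 with Emb (IL-23) and 0.14 with Rgs1 (Unstimulated).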

How the data were processed

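Transcriptomes of single cells were captured in droplets (10x Genomics) as 2 libraries, 1 per group. The deposited matrices hold whole-number UMI counts per gene and barcode, not normalized, per the file headers and values. Per the submitters' processing notes Cell Ranger 3.1.0 and mm10 were used, while per the file headers it was cellranger 6.0.0; nothing settles which made the counts. The kit and the cell calling rule are not given by these sources.

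UMI sums of each class in each library were divided by the class total to give CPM. Log2 ratios added 0.5 UMI to each sum and carry exact conditional intervals; sums carry exact Poisson and shares exact binomial (Clopper-Pearson) intervals, all at 95% (Python 3.11.15, numpy 2.4.6, scipy 1.17.1, pandas 2.3.3, matplotlib 3.10.9). These cover counting error only, and no test was possible with 1 library per group, so sizes of at least 1.5-fold were counted. Cells were thinned without replacement to 2000 UMIs (seed 7). No doublet caller was run, so doublets remain; leaving out the 1% of cells with the most UMIs is an alternative. B-marked and macrophage-marked barcodes had UMIs of at least 3 marker genes of that type. The ratio step was tested on simulated sums drawn with Poisson counting error only. Unevenness between cells was not simulated, so the intervals were not tested for it. Named genes were the 3 members, 10 partners always named, list genes at least 1.5-fold different with at least 10 CPM, and the 5 genes nearest each member. The members and all lists were chosen with earlier results of these data known. Positions and symbols were matched by gene identifier to a GENCODE annotation of GRCm38, and promoters came from RefSeq.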

Additional observations from a re-analysis of the deposited data

Results flagged for a closer look

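Gadd45a of Trdc+ T cells ran against the other classes: its log2 ratio, IL-23 over Unstimulated, was -0.40 (-0.68 to -0.12), with 192 UMIs in IL-23 and 231 in Unstimulated cells, while it was 0.46 in CD3- cells and 0.79 in Trac+ T cells. It is listed because the direction is opposite in 1 class. The difference between classes was not tested, since each group was 1 library. The share of Trdc+ T cells with a Gadd45a UMI was 40.3% in the IL-23 library and 37.5% in the Unstimulated library, and the most in 1 cell was 8 and 26 UMIs. Median UMIs were 7111 and 6154, and at equal depth the shares turned with the setting, 16.1% and 21.6% at 2000 UMIs but 27.3% and 24.3% at 3000. The log2 ratio was -0.32 when cells with both Trdc and Trac were counted and -0.34 with the class median set to 0.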

How the results depend on the processing

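No paired analysis was possible because each group was 1 library, and for the same reason no replicate could be left out. No ratio of a member between the libraries changed direction under the alternatives tried, which were 11 for CD3- cells but only 3 for each single class. Those 3 left Il22 out of the denominator, set the class median to 0 or counted cells of both markers in both classes. Thinning, cell means and other cell filters were not tried on the class ratios, that of Gadd45a in Trdc+ T cells included. In CD3- cells Gadd45b ranged from 0.68 to 0.80: its log2 ratio was 0.71 under a stricter cell filter (1000 genes, 5% mitochondrial), 0.73 as the mean of the cells' own CPM, 0.75 after thinning to 2000 and 0.75 to 3000 UMIs, and 0.72 with Il22 left out of the denominator. Gadd45g was 3.16 as a mean of cells and 3.24 without the 1% deepest cells. With the median gene set to 0 the ratios were 0.57 for Gadd45a, 0.80 for Gadd45b and 3.31 for Gadd45g. For cells with Ifng over cells without it, Gadd45g was 0.62 as a mean of cells, 0.67 without the deepest cells, 0.55 without marked and cycling cells, 0.42 at both thinning depths and 0.95 for at least 2 Ifng UMIs. Gadd45b was 0.83 without marked and cycling cells, 1.25 and 1.00 after thinning to 2000 and 3000 UMIs and 0.83 for at least 2 Ifng UMIs, while Gadd45a was -1.24 and 0.67 after thinning. For high over low Il22, Gadd45b was 0.16 without marked and cycling cells, 0.18 at 3000 UMIs, 0.18 with all UMIs in the denominator and 0.15 at a threshold of 20000; Gadd45g was 1.31 without marked and cycling cells and 1.03 at 20000, and Gadd45a was 0.11 at 20000. Without a filter on low counts 3137 genes were at least 1.5-fold higher and 3642 lower; with the median set to 0, which was chosen after seeing the data, 150 were lower. Of the alternatives for the main results, 68 were labelled the same as the main value and 32 as moved. The values listed here are mostly those that moved. For ratios the label rests on the narrow counting interval, for counts of genes on 1.5-fold. Gadd45a with Ifng over without it had the opposite sign in 3 settings, beside a main log2 ratio of 0.008. The cause of the moves was not tested. Ratios after thinning use classes set anew in the thinned cells, so their cells differ from those of the main values. Depth limits Gadd45a in T cells and every class with Ifng.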
